A study of Mus musculus with 4 samples.

Results

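Heat shock chaperones are the proteins that fold, refold and hold other proteins in the cytosol, nucleus and mitochondria. The 41 genes described here are a fixed list by symbol: the regulator Hsf1, HSP70 and HSP110 genes, HSP90 genes, mitochondrial chaperones, small heat shock proteins, J proteins, co-chaperones of HSP70 and HSP90, and the subunits of the chaperonin CCT. All 41 had a row among the 53465 genes of the count table, and 39 had enough reads to be tested among 12320 tested genes. The list used no measured value of these libraries, although it was drawn up with earlier results of the same data known.

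The cells were B16-F10, a mouse melanoma line, carrying a fluorescent label. After infusion into zebrafish they were isolated and kept in IMDM with 10% FBS, and polyA RNA was sequenced from stranded TruSeq libraries. The 2 extravasated libraries came from cells that had left the vessels of the fish, and the 2 libraries called not extravasated came from infused cells that had not taken part, which the design text names as the control. No other treatment, allele or time was given for either group. The growth text describes extravasated cells for all 4 libraries, so the groups were read from the source name and from the field on extravasation. The titles carry 1 number in both extravasated libraries and another in both others, so whatever that number marks cannot be told apart from the group. Separate cultures are not stated for libraries of 1 group, and p-values therefore reflect only how far these samples vary, possibly for technical reasons. All values come from cultured bulk populations, in which fewer cells of a kind and less RNA per cell cannot be told apart.

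HSP70 proteins bind exposed hydrophobic stretches of unfolded proteins in a cycle driven by ATP. J proteins start that cycle, nucleotide exchange factors such as the BAG proteins end it, and HSP90 takes over partly folded kinases and steroid receptors with the help of its own co-chaperones. CCT is a double ring that folds actin and tubulin, and Hspd1 with its lid Hspe1 does related work in the mitochondrial matrix. The transcription factor HSF1 switches on many of these genes under heat and other protein stress, by binding inverted repeats of the short unit GAA in their promoters. Tumour cells often keep these genes at high levels.

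The promoters below are shown because they hold the densest arrays of that repeat among the members with a window. Beside them stand Hspa1b, the classical heat-inducible HSP70 gene, and Cdc37, a member that was higher in extravasated cells. All are RefSeq sequences on build GRCm38.p6, 300 bases each, from 250 bases before to 50 bases after the annotated start. They are read 5′ to 3′ on the strand of the gene. Capitals mark the letters GAANNTTC or TTCNNGAA, where N is any base. Each of these patterns is its own reverse complement, so a search of 1 strand covers both. The windows lie at chr9:18292017-18292316 (Chordc1, plus strand), chr5:149636266-149636565 (Hsph1, minus strand), chr5:29735648-29735947 (Dnajb6, plus strand), chr1:55087898-55088197 (Hspe1, plus strand), chr17:34959189-34959488 (Hspa1b, minus strand) and chr9:21149885-21150184 (Cdc37, minus strand).
Chordc1: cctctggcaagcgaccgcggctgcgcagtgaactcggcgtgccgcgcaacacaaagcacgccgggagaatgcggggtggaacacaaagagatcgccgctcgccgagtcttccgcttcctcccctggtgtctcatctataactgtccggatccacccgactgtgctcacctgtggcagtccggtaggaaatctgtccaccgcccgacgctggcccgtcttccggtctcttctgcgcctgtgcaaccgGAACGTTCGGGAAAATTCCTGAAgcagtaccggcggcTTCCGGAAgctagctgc
Hsph1: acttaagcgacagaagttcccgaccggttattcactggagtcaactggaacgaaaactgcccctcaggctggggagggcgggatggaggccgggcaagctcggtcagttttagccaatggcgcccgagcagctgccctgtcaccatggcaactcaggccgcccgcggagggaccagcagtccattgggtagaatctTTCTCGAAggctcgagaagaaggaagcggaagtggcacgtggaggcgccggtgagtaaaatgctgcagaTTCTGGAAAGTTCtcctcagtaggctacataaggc
Dnajb6: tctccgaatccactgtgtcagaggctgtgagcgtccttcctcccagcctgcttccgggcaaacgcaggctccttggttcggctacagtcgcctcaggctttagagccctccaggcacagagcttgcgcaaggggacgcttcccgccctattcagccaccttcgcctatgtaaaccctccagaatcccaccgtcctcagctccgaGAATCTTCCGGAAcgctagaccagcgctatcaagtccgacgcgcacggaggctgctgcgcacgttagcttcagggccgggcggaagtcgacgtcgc
Hspe1: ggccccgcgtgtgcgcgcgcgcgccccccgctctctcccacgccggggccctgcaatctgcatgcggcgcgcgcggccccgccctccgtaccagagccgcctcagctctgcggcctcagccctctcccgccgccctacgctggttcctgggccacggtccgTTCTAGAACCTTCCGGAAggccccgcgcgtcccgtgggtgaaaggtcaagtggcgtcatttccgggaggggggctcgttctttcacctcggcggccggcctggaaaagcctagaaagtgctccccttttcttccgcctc
Hspa1b: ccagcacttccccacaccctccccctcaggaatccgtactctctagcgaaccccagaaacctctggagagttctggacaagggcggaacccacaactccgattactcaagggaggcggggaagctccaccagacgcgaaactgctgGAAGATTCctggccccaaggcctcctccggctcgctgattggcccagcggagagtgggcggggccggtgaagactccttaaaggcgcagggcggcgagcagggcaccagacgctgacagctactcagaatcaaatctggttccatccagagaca
Cdc37: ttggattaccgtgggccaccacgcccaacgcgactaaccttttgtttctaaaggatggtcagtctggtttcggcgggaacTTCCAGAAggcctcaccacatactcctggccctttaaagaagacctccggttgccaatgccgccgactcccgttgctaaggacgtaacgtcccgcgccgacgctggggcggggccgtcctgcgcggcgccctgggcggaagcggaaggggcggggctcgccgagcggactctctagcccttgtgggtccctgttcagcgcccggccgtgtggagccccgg

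The table of RefSeq promoters held windows for 34 of the 41 members. The repeat stood in at least 1 window of 18 of these 34 genes (52.9%), and in 4587 of all 27025 genes with a window (17%). A longer form with 3 units in a row, GAANNTTCNNGAA or TTCNNGAANNTTC, stood in 5 of the 34 members (14.7%) and in 0.662% of all genes. Those 5 were Hsph1, Hspd1, Hspe1, Dnajb6 and Chordc1. The Chordc1 window held 5 overlapping or neighbouring matches, of which the first began 4 bases before the annotated start. Hspd1 and Hspe1 lie head to head on chromosome 1, and 1 of the 2 Hspd1 windows shares 285 bases with the Hspe1 window, so the same 3 matches were counted for both. The windows of Hspa1a and Hspa1b differed at 4 of 300 bases. The letters CCAAT, searched on both strands as CCAAT or ATTGG, stood in 44.1% of member genes and 41.1% of all genes. A match describes letters in a window and is not evidence that a factor bound there.

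Library totals ran from 11705904 to 19674733 counts, and mitochondrially encoded genes took 6.51% to 8.88% of them. All 7 melanocyte lineage markers were present, with summed levels of 23900 to 30900 CPM (read counts scaled to a common library total with TMM factors). Of the markers of other cell types, the endothelial genes Cdh5, Kdr and Tek, the leukocyte genes Ptprc and Cd3e, and the epithelial genes Epcam, Krt5 and Krt14 had no count in any library. The remaining markers of these lists had 1 to 13 counts a library for Pecam1, 8 to 22 for Cdh1, 50 to 76 for Cd68, and 1 count in all for Csf1r. The fibroblast genes Dcn and Lum had none, and the 6 fibroblast markers summed to 16.3 to 23.2 CPM, with group ranges that overlapped. Among them Col1a1 rose (3.73 and 4.05 against 6.74 and 7.16 CPM, edgeR adjusted p = 0.0351) and Pdgfra fell (2.60 and 3.94 against 1.36 and 1.05 CPM, adjusted p = 0.0221) without correction, and neither was called with it. Their part in the chaperone results was not tested. The library not extravasated 2 stood apart in the sum of 8 immediate early genes, which respond quickly to handling and serum. They summed to 967 CPM there and to 172, 298.5 and 265 CPM in not extravasated 1, extravasated 1 and extravasated 2. Egr1 alone gave 569 CPM there, against 31.4, 54.4 and 46.0 CPM in the same order. Fos, Jun, Junb, Ier2, Fosb and Atf3 were also highest there. Fosb stood at 4.34 CPM there, against 0.35, 4.16 and 2.90 CPM in the same order. Atf3 stood at 5.21 CPM, against 4.60, 4.24 and 4.27 CPM. Dusp1, at 19.96 CPM, was below its levels in extravasated 1 and 2, of 21.4 and 20.3 CPM. By edgeR and by DESeq2 none of the 8 was called, nor had an unadjusted p under 0.05, and their part in the chaperone levels was not tested.

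Across all tested genes the difference between the groups followed the base composition of the transcript. Spearman's rho between fold change and GC content was 0.74 over 11126 nuclear coding genes, and that with length was -0.38. Genes are not independent replicates and share the same 4 libraries, so these are descriptions. A second fit was therefore made, in which a smooth trend of each library with GC content and length was removed. By construction this took both rho values to 0.013 and -0.010. Any difference between the cells that follows GC content or length is removed with it. Both fits are given for the members, as the uncorrected and the corrected fold change, always for extravasated over not extravasated. Called means an adjusted p under 0.05 in edgeR's two-sided quasi-likelihood test with Benjamini-Hochberg adjustment over all 12320 tested genes. Where groups are said not to overlap, this only describes the 4 values. Called genes were picked for their difference, and uncalled members such as Dnaja3 and Bag3 did not overlap either. The share of all tested genes without overlap is not given.

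The chaperones as a whole did not move in 1 direction. Without correction 11 of the 39 tested members rose and 12 fell, while 19.1% of all tested genes rose and 25.9% fell. With correction 6 members rose and none fell, while 8.17% of all tested genes rose and 5.79% fell. These shares of all tested genes are the background for every count of called genes below. In the corrected edgeR fit 11 members were higher and 2 lower at an unadjusted p under 0.05. In either direction these were 13 of the 39 tested members, beside 3972 of the 12320 tested genes. With the longest coding transcript in place of the principal one 4 were called higher and 1 lower. In that fit 13.5% of all tested genes were called in either direction. The median log2 fold change of the members was 0.087 without and 0.10 with correction, and that of all tested genes was -0.020 and 0.041. The summed level of the members stayed between 23460 and 24940 CPM in the 4 libraries. Hspbp1, Cdc37 and Cct3 were the members that rose in both fits. Cct3 was not called in the corrected fit with the longest transcript (edgeR adjusted p = 0.0661), nor in the uncorrected fit with library totals (0.0728) or without not extravasated 2 (0.0522).

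These counts rest on few libraries. Without extravasated 2 the uncorrected fit called Hspbp1 higher and Dnaja1, Dnajb4, Chordc1 and Ptges3 lower, and no other member, while 14.7% of all tested genes were called in either direction. Without extravasated 1 it called 5 members higher and 6 lower, beside 27.8% of all tested genes. The corrected fit called 1 member, Cdc37, without extravasated 1 (1.59% of all tested genes) and none without extravasated 2, where no gene of the whole table was called, although 2095 genes and 5 members had an unadjusted p under 0.05. Without not extravasated 1 it called 8 higher and 3 lower, the latter being Dnajb4, Bag2 and Ptges3, beside 28.3% of all tested genes. Without not extravasated 2 it called 9 higher, beside 17.6% of all tested genes.

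**Figure D1:**
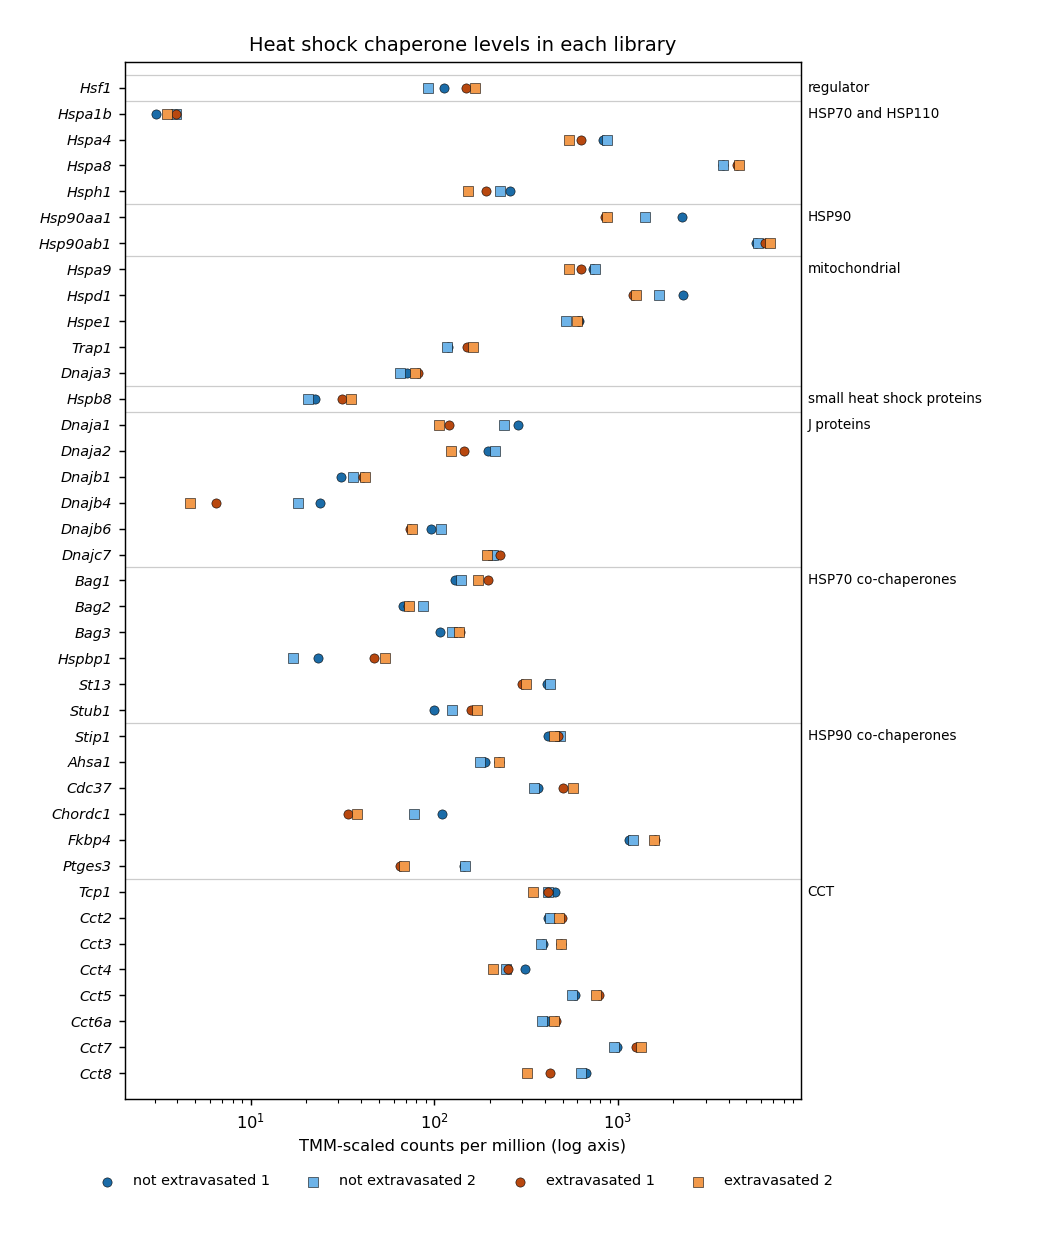
Level of the 39 tested members in each of the 4 libraries, by class, in TMM-scaled CPM on a log axis; blue points are the libraries not extravasated and orange points the extravasated ones. Hsp90ab1 and Hspa8 are the highest and Hspa1b, at 3.04 to 3.94, the lowest. Without correction the 3 largest fold changes are those of Dnajb4 (3.77, lower in extravasated), Chordc1 (2.62, lower) and Hspbp1 (2.51, higher).

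Hsf1, the heat shock transcription factor (ENSMUSG00000022556.11, chromosome 15, 76477422 to 76501913), was higher in extravasated cells before correction. Its level was 113 and 92.3 CPM in the libraries not extravasated, against 149 and 167 CPM in those that had extravasated. Both extravasated libraries lay above both others. The log2 fold change was 0.63 ± 0.15 (SE, 2 libraries a group, edgeR adjusted p = 0.0115), and 0.15 ± 0.13 (adjusted p = 0.468) with correction, where it was not called. Among 4 other heat shock factor genes and regulators, 3 were tested, 1 rose and 1 fell without correction. Hsf2, a second heat shock factor, went from 23.4 and 23.4 CPM to 7.19 and 7.37 CPM, a log2 fold change of -1.68 (edgeR adjusted p = 0.00103), and missed the threshold with correction (-0.60, adjusted p = 0.0782). Hsf4, a further factor of the family, went from 26.6 and 24.2 CPM to 43.1 and 45.9 CPM (log2 fold change 0.81, adjusted p = 0.0051), and stood at 0.245 (adjusted p = 0.257) with correction.

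The HSP70 class was dominated by Hspa8, the constitutive cytosolic HSP70, and the inducible forms were nearly silent in all 4 libraries. Hspa8 (chromosome 9, 40800984 to 40810087) stood at 3750 and 3750 CPM in the libraries not extravasated against 4469 and 4549 CPM in extravasated 1 and 2. The groups did not overlap, but the difference was not called in either fit (log2 fold change 0.27, edgeR adjusted p = 0.0687; corrected 0.16, adjusted p = 0.368). With the kind of title suffix (a capital C, shared by 1 library of each group, or a small letter) as a term, edgeR called it higher (0.27, adjusted p = 0.0432). Hspa1b had 35, 68, 52 and 67 counts in not extravasated 1, not extravasated 2, extravasated 1 and extravasated 2, or 3.04, 3.94, 3.94 and 3.53 CPM. The groups overlapped. Hspa1a had no count in any library, which allows up to 0.26, 0.173, 0.227 and 0.158 CPM in the same order, counting 3 reads as the limit. Of the 50-base stretches of Hspa1a, 66.3% occur in other genes too, as do 62.3% of those of Hspa1b, most of them in the other member of the pair. How the counting treated reads that fit both is not given in the sources used here, so the split between the pair is uncertain. Per kilobase of transcript, both genes together reached 0.000692, 0.000896, 0.000752 and 0.000662 of the Hspa8 level in the 4 libraries. Of the Hspa8 transcript, 74.8% of such stretches recur elsewhere, 70.02% of all in the single gene Gm15459, so its level is uncertain too.

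Hspa4 and Hsph1, HSP110 relatives of HSP70 that act as its nucleotide exchange factors, fell in extravasated cells before correction and were not called after it. Hspa4 went from 833 and 869.6 CPM to 627 and 538 CPM, for a log2 difference of -0.55 ± 0.12 (SE; edgeR adjusted p = 0.00971). Hsph1, the heat-inducible HSP110 whose promoter is shown above, went from 258 and 228 CPM to 192 and 153 CPM (-0.49 ± 0.15, adjusted p = 0.0295). In both genes each extravasated library lay below each other library, and extravasated 2 was the lowest. The corrected values were 0.080 for Hspa4 and -0.042 for Hsph1, neither called, so the direction of Hspa4 turned. Of 11 other HSP70, HSP110 and small heat shock genes, 8 were tested, 1 rose and 1 fell without correction, and none was called with it, where 1 was higher and 1 lower at an unadjusted p under 0.05. Hspa4l, the third HSP110 gene, went from 37.6 and 18.3 CPM to 6.06 and 7.74 CPM (log2 fold change -2.00, edgeR adjusted p = 0.0075; corrected -0.30, adjusted p = 0.337).

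The cytosolic HSP90 genes split. Hsp90aa1, the inducible form (chromosome 12, 110690605 to 110702728), went from 2244 and 1401 CPM to 845 and 868 CPM. The extravasated libraries agreed closely and lay below both others, which differed from each other. The log2 fold change was -1.09 ± 0.22 (SE; edgeR adjusted p = 0.0109), or -0.17 (adjusted p = 0.54) with correction. Hsp90ab1, the constitutive form, stood at 5648 and 5790 CPM against 6323 and 6727 CPM. It was not called in either fit (0.19, adjusted p = 0.177; corrected 0.11, adjusted p = 0.555). The ratio of Hsp90aa1 to Hsp90ab1 per kilobase was 0.305 and 0.186 in the libraries not extravasated and 0.103 and 0.0991 in the extravasated ones. With correction the log2 ratio was -2.27 and -2.85 against -2.84 and -2.80, so that only not extravasated 1 stood apart. With 2 libraries a group an exact permutation test cannot go below a two-sided p of 0.333, so the ratios are given as values. Pseudogene copies bear on Hsp90aa1, since 58.5% of its 50-base stretches recur in other genes.

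**Figure D2:**
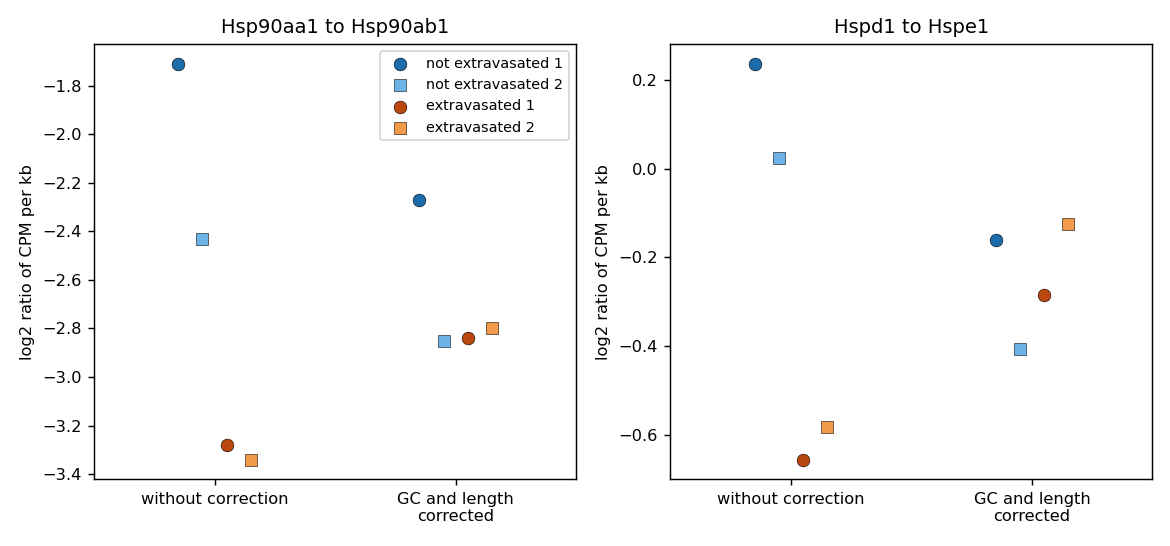
Log2 ratio of 2 related members within each library, from levels per kilobase of transcript, without and with the GC and length correction; each point is a library. Hsp90aa1 to Hsp90ab1 (left) and Hspd1 to Hspe1 (right) are lower in both extravasated libraries without correction, and in neither ratio are the groups apart with it.

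The mitochondrial chaperones moved in different directions. None of the 5 was called after correction, where 1 was higher and 1 lower at an unadjusted p under 0.05. Hspd1, the chaperonin HSP60 of the matrix (chromosome 1, 55077835 to 55088243), went from 2257 and 1667 CPM to 1207 and 1251 CPM, with a log2 difference of -0.67 ± 0.15 (SE; edgeR adjusted p = 0.0111). Its lid Hspe1 stood at 612 and 524 CPM against 608 and 598 CPM, and the groups overlapped (0.087, adjusted p = 0.592). The pair therefore changed in its ratio: Hspd1 per kilobase was 1.18 and 1.02 times Hspe1 in the libraries not extravasated and 0.635 and 0.668 times in the extravasated ones. With correction the log2 ratios were -0.16 and -0.41 against -0.29 and -0.13, which overlap, and the fold changes were -0.23 (adjusted p = 0.353) and -0.30 (adjusted p = 0.12). The annotated exons of the 2 genes overlap by 112 bases on opposite strands, and 44.8% of the 50-base stretches of each recur in other genes.

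Trap1, the HSP90 of mitochondria, went from 119 and 118 CPM to 150.3 and 162 CPM (log2 fold change 0.40 ± 0.12, SE; edgeR adjusted p = 0.0311; corrected 0.20, adjusted p = 0.261). Hspa9, the mitochondrial HSP70, stood at 730.4 and 750.2 CPM against 628 and 542 CPM and missed the threshold in both fits, with a fold change of -0.34 (adjusted p = 0.0505) and of 0.27 (adjusted p = 0.145) after correction. The uncorrected edgeR fit called Hspa9 lower with the title suffix as a term (-0.34, adjusted p = 0.024), with library totals (-0.39, adjusted p = 0.0478) and without not extravasated 1 (-0.36, adjusted p = 0.0229). Dnaja3, its J protein partner, was not called (0.24 without and 0.215 with correction). Of 13 further partners and proteases of the matrix, 5 rose and 1 fell without correction, and 4 rose and none fell with it. Dnlz, which keeps Hspa9 soluble, rose in both fits (1.06, adjusted p = 0.00183; corrected 0.68, adjusted p = 0.0176). Clpx, the unfoldase of a matrix protease, fell without correction (-0.88, adjusted p = 0.00464), and its peptidase Clpp rose (0.75, adjusted p = 0.00609). Neither was called with correction (-0.12 and 0.11).

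Of the small heat shock proteins, which hold unfolded proteins without ATP, Hspb8 was present and Hspb1 was not measurable. Hspb8, a partner of Bag3 in selective autophagy, went from 22.3 and 20.5 CPM to 31.4 and 35.4 CPM. Both extravasated libraries were higher (log2 fold change 0.64 ± 0.16, SE; edgeR adjusted p = 0.0158), and the corrected value of 0.33 was not called (adjusted p = 0.161). Hspb1 had 1 count, in extravasated 2, and none in the other libraries, which is under the limit of 3 counts. Of its 50-base stretches 60.4% recur in other genes, nearly all in the copy Hsp25-ps1, so reads of the gene may have been lost in counting. Cryab, the alpha-B crystallin and a related small heat shock protein, stood far above both, at 484 and 308 CPM against 618 and 687 CPM. It rose without correction (0.72, adjusted p = 0.0359) and not with it (0.21, adjusted p = 0.514).

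The J proteins, which deliver unfolded proteins to HSP70 and switch on its ATP hydrolysis, held 4 members that fell without correction and none that rose, nor was any higher at an unadjusted p under 0.05. Dnajb4 (chromosome 3, 152178511 to 152210302) showed the lowest fold change of all members. It went from 23.9 and 18.2 CPM to 6.51 and 4.69 CPM, with a log2 difference of -1.91 ± 0.25 (SE; edgeR adjusted p = 0.00167). With correction it stayed the lowest member at -0.75 ± 0.245, with an adjusted p of 0.0782. Dnaja1, a cytosolic J protein partner of Hspa8, went from 286 and 239 CPM to 121 and 106 CPM (-1.21 ± 0.14, adjusted p = 0.0012). Its corrected value was -0.083. Of the 50-base stretches of Dnaja1, 30.6% recur in other genes, and exons of Smu1 overlap its exons by 608 bases on the opposite strand. Dnaja2, a close relative of Dnaja1, went from 196 and 213 CPM to 145 and 124 CPM (-0.61 ± 0.13, adjusted p = 0.00913), and Dnajb6, which suppresses aggregation, from 96.1 and 108 CPM to 73.9 and 75.7 CPM (-0.45 ± 0.13, adjusted p = 0.0254). In these 4 genes each extravasated library lay below each other library, which describes genes already called and is not separate support.

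Correction turned the sign of 2 of these genes. Dnaja2 stood at 0.38 (edgeR adjusted p = 0.125) and Dnajb6 at 0.41 (adjusted p = 0.112). For Dnajb6 the result depended on the transcript used: with the longest coding transcript it was called lower at -0.53 (adjusted p = 0.0307). Of its 50-base stretches 41.9% recur in other genes, and exons of Gm5129 overlap its exons by 249 bases on the opposite strand. Dnajb1, the heat-inducible partner of HSP70, stood at 31 and 35.9 CPM against 41.1 and 41.9 CPM and was not called (0.31, adjusted p = 0.13). Dnajc7, which also binds HSP90, did not pass either (-0.0029, adjusted p = 0.987). Of 14 other cytosolic J proteins and nucleotide exchange factors, 1 rose and 4 fell without correction, and 1 rose and 2 fell with it. Dnajc13, a J protein of endosomes, and Dnajc21, which acts in ribosome assembly, fell in both fits (-1.57 and -1.53; corrected -0.515, adjusted p = 0.037, and -1.11, adjusted p = 0.00864). Dnajb14, a J protein of the ER membrane, fell without correction (-1.11, adjusted p = 0.00441) and stood at 0.34 with it, not called.

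Among the co-chaperones of HSP70, Hspbp1 rose in both fits. Hspbp1 (ENSMUSG00000063802.5, chromosome 7, 4660521 to 4685068), a nucleotide exchange factor that also holds back the ubiquitin ligase Stub1, went from 23.3 and 17 CPM to 46.8 and 54 CPM. Each extravasated library was above both others. The log2 fold change was 1.33 ± 0.19 (SE; edgeR adjusted p = 0.00219), the highest of all members, and 0.76 ± 0.18 (adjusted p = 0.0297) with correction. Stub1 itself, the ligase known as CHIP, went from 99.5 and 124 CPM to 159 and 170.3 CPM (0.56 ± 0.15, adjusted p = 0.0178), and its corrected value was 0.0087. Exons of Jmjd8 overlap those of Stub1 by 1084 bases on the opposite strand, and the strand setting of the counting is not given in the sources used here. Bag1, the founding member of the BAG exchange factors, went from 129 and 140.1 CPM to 197 and 173 CPM (0.46 ± 0.13, adjusted p = 0.0231), and stood at -0.044 with correction.

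St13, known as Hip, which slows the release of ADP from HSP70, was called in opposite directions by the 2 fits. It went from 410.1 and 428.5 CPM to 302 and 316.5 CPM, so each extravasated library was below both others (log2 fold change -0.44 ± 0.11, SE; edgeR adjusted p = 0.0166). With correction it was called higher, at 0.51 ± 0.13 (adjusted p = 0.0433), and with the longest transcript it stood at 0.47 (adjusted p = 0.0514). Its transcript has 43.3% GC and 3346 bases. Bag3, the stress-inducible BAG protein, stood at 108 and 125 CPM against 137.3 and 137 CPM and was not called (0.235, adjusted p = 0.176; corrected -0.17, adjusted p = 0.398). Bag2, an inhibitor of Stub1, was not called either, with overlapping groups at 67.3 and 86.6 CPM against 71.9 and 72.5 CPM.

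The co-chaperones of HSP90 included the gene with the highest corrected fold change of all members. Cdc37 (ENSMUSG00000019471.10, chromosome 9, 21133222 to 21149982), which loads protein kinases onto HSP90, went from 368 and 349.6 CPM to 503 and 569 CPM. Each extravasated library was above both others, at a log2 difference of 0.58 ± 0.12 (SE; edgeR adjusted p = 0.00743) and of 0.96 ± 0.14 (adjusted p = 0.00758) with correction. The transcript used for its correction was 7851 bases long with 50.4% GC, the longest transcript of any member. That length enters the corrected value, and no fit with a shorter transcript was made. With the longest coding transcript the value was 0.93 (edgeR adjusted p = 0.00813). Fkbp4, an immunophilin of steroid receptor complexes, went from 1143 and 1206 CPM to 1599 and 1579 CPM (0.44 ± 0.11, adjusted p = 0.0137; corrected 0.021). Chordc1, an HSP90 partner with the densest repeat array among the promoters above, went from 111 and 77.8 CPM to 34 and 37.8 CPM. Its log2 fold change was -1.39 ± 0.19 (adjusted p = 0.00196), and -0.039 with correction. Chordc1 has the lowest GC content of the members, at 35.7%.

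Ptges3, the p23 co-chaperone that stabilises the closed form of HSP90, fell from 145 and 147 CPM to 65.3 and 68.3 CPM, with libraries of each group close together. Its log2 fold change was -1.13 ± 0.12 (SE; edgeR adjusted p = 0.000933), the smallest adjusted p of the members, and -0.27 (adjusted p = 0.193) with correction. A copy, Ptges3-ps, shares 22.1% of its 50-base stretches. Stip1, the adaptor that joins HSP70 to HSP90, stood at 417 and 483.5 CPM against 473 and 447 CPM with overlapping groups, and Ahsa1, the activator of HSP90 ATPase, at 189 and 177.5 CPM against 226 and 224 CPM. Neither was called (0.031, adjusted p = 0.856, and 0.30, adjusted p = 0.0699). Of 11 other HSP90 co-chaperones, 10 were tested: 3 rose and 3 fell without correction, and 2 rose and 1 fell with it. Ahsa2, a relative of Ahsa1, fell in both fits (-1.45, adjusted p = 0.00117; corrected -0.745, adjusted p = 0.0162). Ppid, the cyclophilin of HSP90 complexes, fell without correction (-1.20, adjusted p = 0.00204), and the phosphatase Ppp5c rose (0.705, adjusted p = 0.00639). Neither was called with correction (-0.18 and 0.26).

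The 8 subunits of CCT form 1 complex in equal numbers, yet their transcripts differed in level and in fold change. Cct7 went from 985 and 948 CPM to 1250 and 1339 CPM (log2 fold change 0.42 ± 0.11, SE; edgeR adjusted p = 0.0168). Cct5 went from 583 and 559.6 CPM to 787.5 and 762 CPM (0.44 ± 0.11, adjusted p = 0.0144), and Cct3 from 391 and 380.2 CPM to 488.5 and 489 CPM (0.34 ± 0.11, adjusted p = 0.0369). Cct8 moved the other way, from 667.5 and 628 CPM to 428 and 319 CPM (-0.795 ± 0.16, adjusted p = 0.00641). In these 4 genes the groups did not overlap, nor did they in Cct2, Cct6a and Tcp1 below. This only describes the values, since the share of all tested genes without overlap is not given. Cct2 stood at 416 and 427 CPM against 494 and 475 CPM, Cct6a at 411 and 384.5 CPM against 461 and 449.5 CPM, and Tcp1 at 452.5 and 418.5 CPM against 416 and 346 CPM. These 3 and Cct4, whose groups overlapped at 313 and 247 CPM against 253 and 208 CPM, were not called without correction.

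With correction all 8 subunits had a fold change above 0, from 0.087 for Cct8 to 0.56 for Cct6a, and 3 of them were called. These were Cct2 (0.55 ± 0.11, SE; edgeR adjusted p = 0.0225), Cct3 (0.42 ± 0.11, adjusted p = 0.0455) and Cct6a (0.56 ± 0.115, adjusted p = 0.0212). Cct5 stood at 0.39 (adjusted p = 0.0521), Cct4 at 0.39 (adjusted p = 0.0824), Tcp1 at 0.17 (adjusted p = 0.343) and Cct7 at 0.10 (adjusted p = 0.566). The class median was 0.20 without and 0.39 with correction. In the corrected fit none of the 3 was called without extravasated 1 or without extravasated 2, and Cct3 was not called with the longest transcript (adjusted p = 0.0661). Opposite-strand exons of Acat3 overlap Tcp1 by 571 bases and those of Psph overlap Cct6a by 452 bases. The share of all tested genes with a corrected fold change above 0 is not given, and their corrected median was 0.041. Proteasome subunits ran from -0.053 to 1.11 with correction, at a median of 0.245.

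The spread of the subunits was wider in extravasated libraries before correction. Per kilobase, Cct4 was the lowest and Cct7 the highest subunit in each of the 4 libraries, and Cct7 exceeded Cct4 by 3.20 and 3.91 times in the libraries not extravasated and by 5.03 and 6.54 times in the extravasated ones. The SD of the log2 levels over the 8 subunits was 0.54 and 0.61 against 0.75 and 0.89. With correction it was 0.68 and 0.73 against 0.62 and 0.69, which overlap. The fold changes of the subunits spanned 1.23 log2 units without and 0.475 with correction. A further list held 9 genes, for CCT cofactors and for subunits of prefoldin, which hands actin and tubulin to CCT. Of these, 1 rose and 3 fell without correction, and 1 rose and 1 fell with it. Pdcl, a phosducin-like cofactor, fell in both fits (-1.28, edgeR adjusted p = 0.00105; corrected -0.68, adjusted p = 0.0173). Pfdn6 rose (0.65, adjusted p = 0.00789) and Txndc9 fell (-0.60, adjusted p = 0.0115) without correction, and with it they stood at 0.10 and 0.22, not called.

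**Figure D3:**
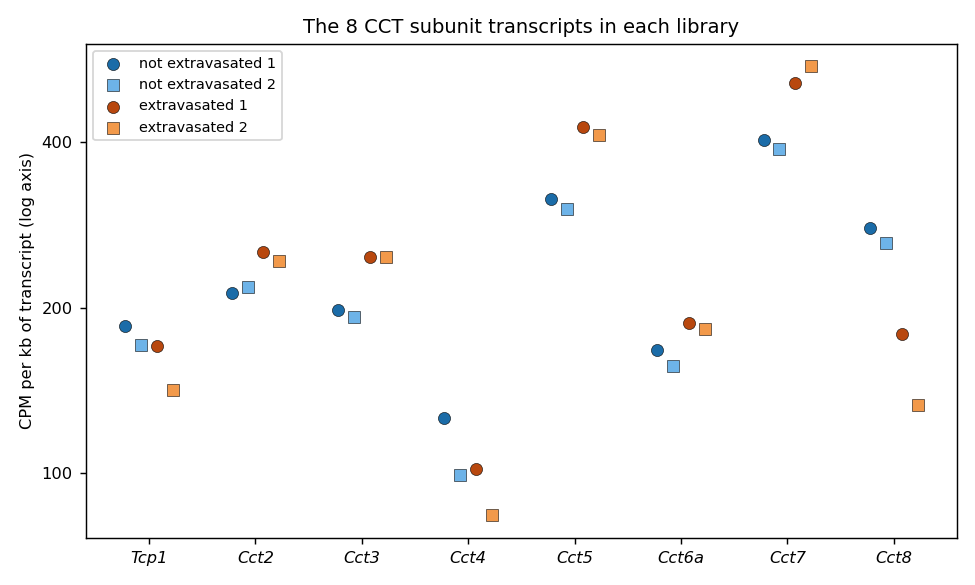
Level of the 8 CCT subunit transcripts in each library, in CPM per kilobase of transcript on a log axis, without correction. Cct4 is the lowest and Cct7 the highest in all 4 libraries, and Cct8 lies below its levels in the libraries not extravasated in both extravasated ones.

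Among the classes with at least 4 tested genes, the J proteins had the lowest uncorrected median and the co-chaperones of HSP70 the highest. The J proteins had 4 of 6 lower and a median of -0.53, HSP70 and HSP110 had 2 of 4 lower and a median of -0.20, and the mitochondrial class had 1 higher and 1 lower of 5 and a median of 0.087. The co-chaperones of HSP70 had 3 of 6 higher, 1 lower and a median of 0.35. Those of HSP90 had 2 of 6 higher, 2 lower and a median of 0.16, and CCT had 3 of 8 higher and 1 lower. Over all tested genes 19.1% were called higher and 25.9% lower without correction. With correction the medians of these classes other than CCT lay between -0.047 and 0.20, and the order changed. A separate list of 12 members known from textbooks as heat-inducible HSF1 targets had 10 tested genes. Hspb8 rose, and Hsph1, Hsp90aa1, Dnaja1, Dnajb4 and Chordc1 fell, with a median of -0.20 without correction. None of the 10 was called with correction, where 1 was lower at an unadjusted p under 0.05 and the median was -0.069. These classes and the list were drawn up with earlier results known, and no class was tested as a set.

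**Figure D4:**
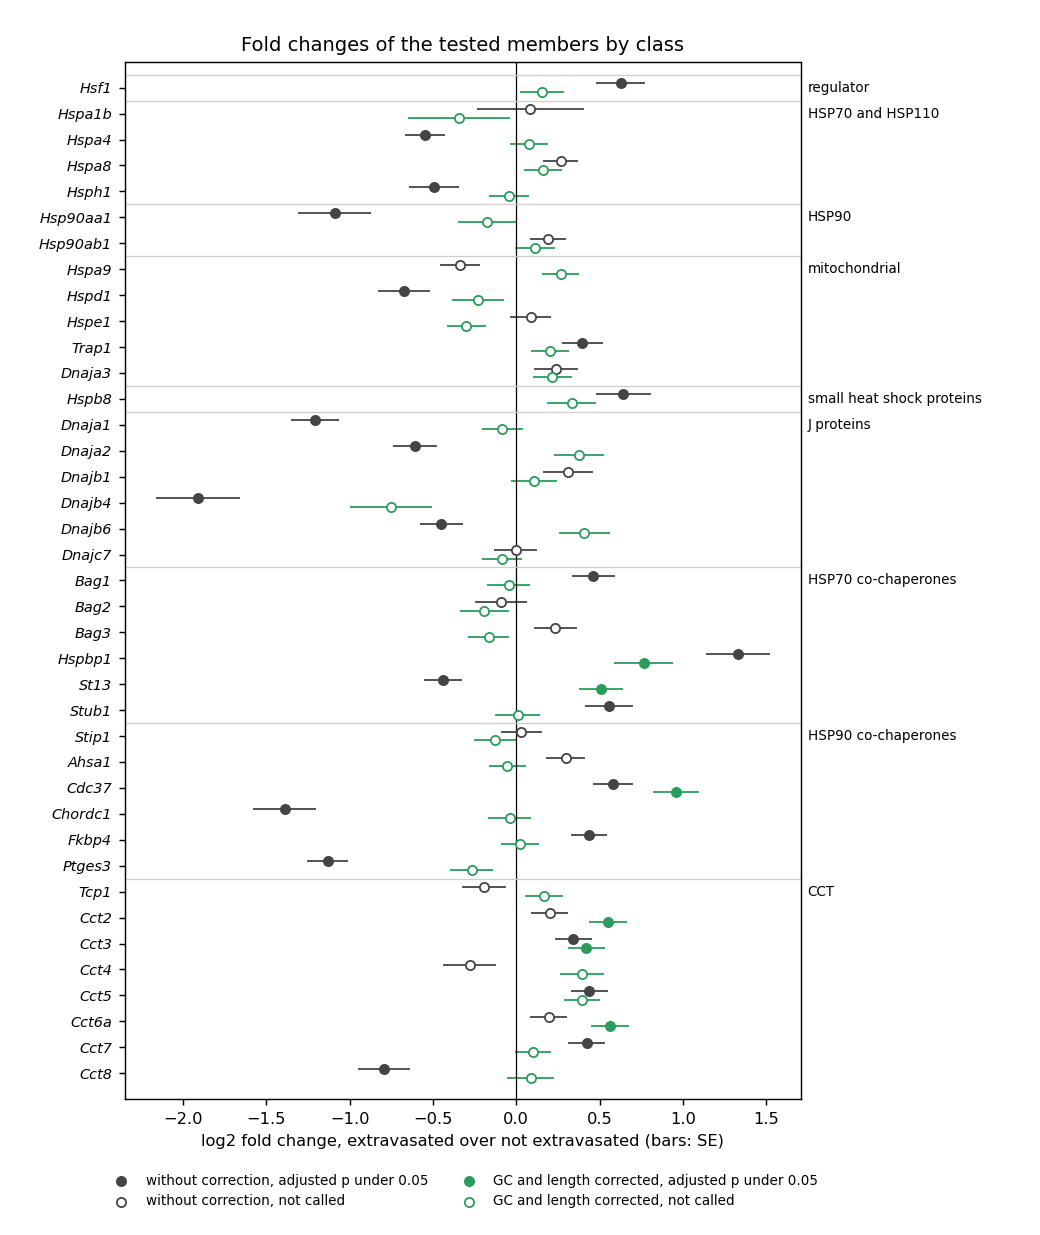
Log2 fold change of each tested member, extravasated over not extravasated, by class, without correction (dark) and with the GC and length correction (green); bars are standard errors and filled points have an adjusted p under 0.05. Dark filled points lie on both sides of 0, from -1.91 for Dnajb4 to 1.33 for Hspbp1, whereas the 6 green filled points all lie above it.

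The direction of a member before correction followed the composition of its transcript. The 11 members that rose had transcripts of 49.3% to 60.8% GC (median 54%), and the 12 that fell had 35.7% to 47.4% (median 43.3%), with no overlap. The 16 uncalled members ran from 45.1% to 58.1%. Over all tested nuclear coding genes the medians were 55.9% for the 2258 that rose and 44% for the 3024 that fell. Spearman's rho between fold change and GC content was 0.83 over the 39 members, which share the same 4 libraries, and -0.059 after correction. For transcript length it was -0.475 and 0.018. The SD of the fold changes over the members was 0.66 without and 0.33 with correction, and over all tested genes 0.86 and 0.58. Whether the trend with composition arose in the cells or in making the libraries was not tested.

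**Figure D5:**
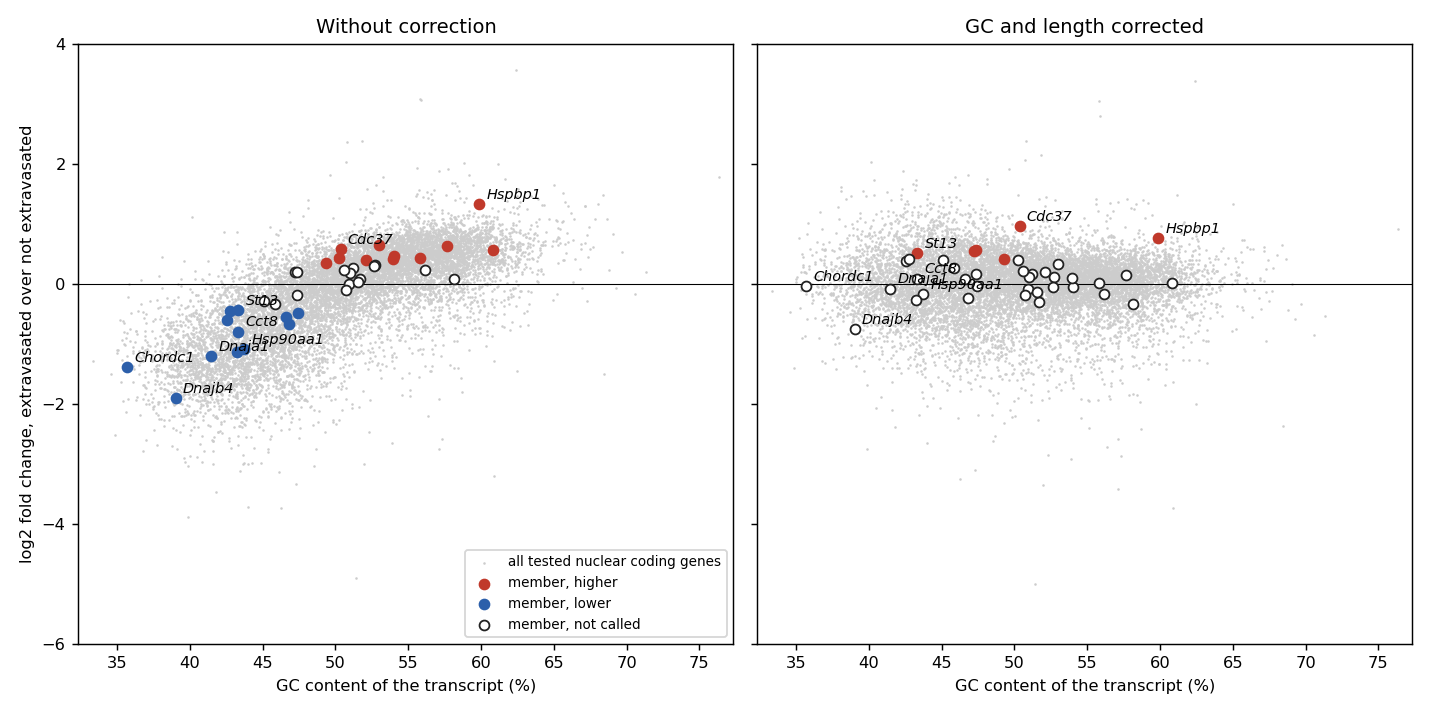
Log2 fold change against the GC content of the transcript for all tested nuclear coding genes (grey) and the members (large points; red called higher, blue called lower, open not called), without (left) and with (right) the GC and length correction. On the left the members lie along the slope of all genes, from Chordc1 at 35.7% to Stub1 at 60.8%. On the right that slope has been removed by the fit.

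The inverted repeat was found in promoters of members that moved either way. It stood in 5 of 10 members with a window that rose without correction, in 6 of 10 that fell and in 5 of 12 that were not called. The longer form stood in 0 of 10, 4 of 10 and 1 of 12 members. These counts are small and were not tested, and the 4 members that fell are Hsph1, Hspd1, Dnajb6 and Chordc1, none of them called with the main correction.

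By level per kilobase, the order of the members was led by Hsp90ab1, at a mean of 2429 CPM per kilobase over the 4 libraries, and Hspa8, at 1725. The ranges of these 2 genes, 2241 to 2669 and 1567 to 1900, did not overlap. Hspe1 followed at 756.5, Hspd1 at 658.5, Fkbp4 at 623 and Cct7 at 463, and the ranges of these 4 overlapped from neighbour to neighbour. The lowest tested members were Hspa1b at 1.29, Dnajb4 at 5.40, Chordc1 at 11.2 and Dnajb1 at 12.5 CPM per kilobase. Chordc1 ranged from 5.87 to 19.1 and Dnajb1 from 10.3 to 14, so these neighbours overlapped.

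For comparison, the chaperones of the endoplasmic reticulum and the proteasome were read in the same fits. Over all tested genes 19.1% rose and 25.9% fell without correction, and 8.17% rose and 5.79% fell with it. Of 15 ER chaperones, 2 rose and 7 fell without correction (median -0.105), and with it none rose, also at an unadjusted p under 0.05, and 1 fell. That gene was Hsp90b1, the HSP90 of the ER, which fell by 1.67 without correction (edgeR adjusted p = 0.000719) and by 0.81 on the log2 scale with it (adjusted p = 0.00874). Canx and Dnajc3, a lectin chaperone and a J protein of the ER, fell without correction (-1.15 and -0.98) and stood at -0.0025 and 0.12 with it. Of 31 proteasome subunits, 14 rose and 4 fell without correction (median 0.30), and 4 rose and none fell with it (median 0.245). Psmd8, Psmb5 and Psmb6 rose without correction (0.805, 1.06 and 0.80) and were not called with it (adjusted p = 0.0592, 0.0858 and 0.389). The corrected medians of the chaperones, the ER chaperones and the proteasome were 0.10, -0.0025 and 0.245, and no difference between these lists was tested.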

How the data were processed

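PolyA RNA of 4 B16-F10 libraries, 2 extravasated and 2 not, was compared. The deposited values are raw counts per gene, whole numbers without normalization. The submitters' processing notes name bcl2fastq 2.18.0.12, STAR 2.5.3a and build GRCm38. The counter, its strand setting and its annotation are not given in the sources used here. Of 53465 gene identifiers, 53360 matched GENCODE M21 on GRCm38 and gave the symbols.

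Differential expression used edgeR 4.0.16 in R 4.3.3, without covariates: genes passing the default expression filter (minimum count 10, total 15), TMM factors, robust dispersions, and the two-sided quasi-likelihood test with Benjamini-Hochberg adjustment and a threshold of 0.05. Levels are CPM on TMM-scaled totals; levels per kilobase divide them by the length of the principal coding transcript (for Cct6a, the longest of any kind). In the corrected fit, the deviation of log2 CPM (prior count 2) of each library was smoothed on GC content and log2 length (mgcv 1.9.3, basis size 10) and entered as an offset. With 1 library left out of a group of 2, the lone library is assumed to vary like the others. The code was tested on simulated counts. Alternatives were RLE factors, library totals, DESeq2 1.42.0, no expression filter, a title suffix term, the longest transcript, and leaving out each library.

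The members, classes and further lists were chosen with earlier results of these data known. All members are named. The naming rule gave library values for members called in either fit and for 11 fixed by symbol; they were added for all others except Dnaja3 and Dnajc7. From each further list up to 3 genes called without correction, with the smallest adjusted p, are named. Marker genes are named by their counts. Limits of counts cover counting error only.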

Additional observations from a re-analysis of the deposited data

How the results depend on the processing

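The 11 higher and 12 lower members without correction became 11 and 12 with RLE factors, 11 and 12 without an expression filter, 11 and 11 with DESeq2, 12 and 13 with a title suffix term, and 8 and 13 with library totals; the shares of all tested genes called were 46%, 29.2%, 42.6%, 50% and 42.9%. They became 6 and 0 with the GC and length correction on the principal transcript, and 4 and 1 on the longest. In these fits 14% and 13.5% of all tested genes were called in either direction. Leaving out 1 library gave 1 to 11 higher and 4 to 13 lower, fewest without extravasated 2, while 14.7% to 48.8% of all tested genes were called. The median of 0.0866 ranged from 0.13 to 0.185 when 1 library was left out. With correction, leaving out 1 library gave 0 to 9 higher, 0 to 3 lower and medians of 0.103 to 0.154. The labels number no replicates. The title suffix C is shared by 1 library of each group, and the term for it, which is not known to mark a pair, added Hspa8 and Hspa9 to the calls.

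Among the called members and the called further genes that the naming rule selected, directions turned under the correction and under no other alternative. On the principal transcript Hspa4 stood at 0.0795, Dnaja2 at 0.378, Dnajb6 at 0.409, Bag1 at -0.044, St13 at 0.507, Cct8 at 0.0869, Dnajb14 at 0.343, Txndc9 at 0.223 and Dnajc3 at 0.119. On the longest transcript Hspa4 stood at 0.0351, Dnaja1 at 0.096, Dnaja2 at 0.346, Bag1 at -0.0326, St13 at 0.472, Stub1 at -0.00945, Fkbp4 at -0.00377, Cct8 at 0.0478, Dnajb14 at 0.331, Txndc9 at 0.586 and Dnajc3 at 0.0947. Of all 58 called genes of the further and marker lists, named or not, 14 turned on the principal and 15 on the longest transcript. Of these, 2 were called in the opposite direction on the principal transcript and 1 on the longest. Psma3 went from -0.42 to 0.68 and, on the longest, to 0.66. Tyr went from -0.595 to 0.77 on the principal transcript only. The sign of 8 uncalled members also turned with either transcript. The cause was not tested. Low counts limit Hspa1a and Hspb1, for which no difference was detectable at this depth.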
